A study of Mus musculus with 54 samples.

Results

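Acceptor microglia were compared between 150 min and 0 min of co-culture with donor microglia that had been given alpha-synuclein (aSyn). The comparison uses 6 of the 54 libraries of the study: the 3 acceptor libraries at 150 min and the 3 at 0 min, taken from the group label and paired by the replicate number in their titles, which is called the experiment here. All cells were primary microglia of C57BL/6 mice, shaken off the astrocyte layer of neonatal brain cultures that held cells of more than 1 brain and were fed with medium containing 10% FCS and the supernatant of L929 cells. Acceptors received no aSyn and were stained with CellTracer Violet for 15 min. Donors received 1 µM aSyn carrying the dye Atto-488 for 14 h. After co-culture the populations were separated again by flow cytometry. Experiment 1 used cells of passage 3, experiment 2 of passage 1 and experiment 3 of passage 2.

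The comparison asks what changed in acceptors during 150 min beside donors, with staining and sorting on both sides. Acceptors kept alone for 150 min are not among the groups, so contact with donors and time in culture cannot be told apart. How the 0 min cells were handled between staining and sorting is not given in the labels. Beyond the passage number, nothing states whether the 3 experiments came from separate animals.

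Microglia are the resident macrophages of the brain, and aSyn is the neuronal protein that aggregates in Parkinson disease. Aggregated aSyn can be taken up by microglia and can engage pattern-recognition receptors, which act through the transcription factor NF-kB on cytokine and chemokine genes. Type I interferon acts through STAT and IRF factors on a separate set of antiviral genes. Immediate early genes such as Fos and Egr1 respond within minutes to many stimuli, handling among them.

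Interferon-stimulated genes often carry an interferon-stimulated response element, bound by IRF and STAT factors, in front of their start. The core searched here was GAAANNGAAA on either strand in the 250 bases before the gene start (RefSeq, build GRCm38.p6). It was found in 18 of the 31 interferon-stimulated genes of the list below that have a promoter entry (58.1%), and in 344 of 10353 tested genes with an entry (3.32%). Only genes of this list with a single promoter entry were considered for display. The 4 promoters shown are those among them with a match that had the smallest p-values and lay outside the annotated gene. They are shown because their genes form the list with the highest median difference in the comparison; capitals mark the core and its overlapping copies, and each is written 5′ to 3′ in the direction of transcription.
Oas1a, chr5:120907526-120907775, minus strand: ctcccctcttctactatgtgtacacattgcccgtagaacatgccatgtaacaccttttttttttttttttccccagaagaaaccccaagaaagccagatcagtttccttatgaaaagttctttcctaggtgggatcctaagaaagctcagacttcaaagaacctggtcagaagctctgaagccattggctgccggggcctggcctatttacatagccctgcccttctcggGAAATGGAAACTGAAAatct
Rsad2, chr12:26456453-26456702, minus strand: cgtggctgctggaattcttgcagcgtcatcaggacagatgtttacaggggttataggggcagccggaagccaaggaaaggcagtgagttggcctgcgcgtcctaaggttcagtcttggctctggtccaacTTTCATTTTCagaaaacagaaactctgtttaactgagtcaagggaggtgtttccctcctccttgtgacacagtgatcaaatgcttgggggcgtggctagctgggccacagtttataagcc
Gbp7, chr3:142530086-142530335, plus strand: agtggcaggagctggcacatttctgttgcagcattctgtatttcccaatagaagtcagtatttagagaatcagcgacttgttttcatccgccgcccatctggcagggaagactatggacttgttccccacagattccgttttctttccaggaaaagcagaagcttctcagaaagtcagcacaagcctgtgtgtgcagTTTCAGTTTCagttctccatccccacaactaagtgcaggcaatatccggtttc
Isg15, chr4:156200819-156201068, minus strand: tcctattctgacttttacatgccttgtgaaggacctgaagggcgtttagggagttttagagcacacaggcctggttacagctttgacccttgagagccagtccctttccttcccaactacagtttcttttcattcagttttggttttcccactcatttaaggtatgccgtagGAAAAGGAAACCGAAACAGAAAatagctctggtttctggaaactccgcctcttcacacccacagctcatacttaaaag

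Reads were counted near the 3′ end of polyadenylated RNA (QuantSeq). The 6 libraries held 8702881 to 14896583 counts, and 13495 to 14049 genes had counts in a library. Levels are given as CPM, counts scaled to a common library size with edgeR's TMM factors. The ribosomal RNA precursor Rn45s took 2.75 to 8.50% of counts at 0 min and 6.05 to 9.04% at 150 min. The summed level of 12 microglia markers was 9131 to 11524 CPM at 0 min and 8085 to 10015 CPM at 150 min, with every marker detected. The sum was lower at 150 min in each experiment (9131 to 8085, 9253 to 8857 and 11524 to 10015 CPM), and 6 of the 12 markers were lower in all 3. Summed astrocyte markers (10 genes) were 14.0 to 41.1 CPM at 0 min and 13.3 to 47.8 CPM at 150 min, and neuron markers (8 genes) 1.32 to 19.8 and 1.68 to 22.8 CPM. Oligodendrocyte lineage markers (9 genes) summed to 90.5 to 260.9 and 85.5 to 205.8 CPM. Experiment 3 was the highest in all 3 of these lists at both times, and the B cell genes Cd79a and Ms4a1, the 2 of 8 T, B and NK cell markers in the count table, were at 0 in all 6 libraries. Fewer cells of a type and less RNA per cell cannot be told apart in such libraries.

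No gene passed the test between 150 and 0 min. The fit held all 41 libraries of experiments 1 to 3, so spread and experiment effects were estimated over all 14 groups and not the 6 libraries alone. With the experiment as a block, edgeR's quasi-likelihood test called 0 of 13079 genes (0%) at an adjusted p of 0.05, and the smallest adjusted p was 0.151. An unadjusted p under 0.05 was found for 1216 genes (9.3%), 568 higher (4.34%) and 648 lower (4.95%) at 150 min. DESeq2 called 17 genes and limma voom 0. Across all genes the median log2 fold change was 0.01, and the median standard error 0.20. The 3 experiments had the same sign for 4420 genes (33.8%), 2247 higher (17.2%) and 2173 lower (16.6%). Across genes, which are not independent, the 150 to 0 min difference of one experiment correlated with that of another at r = 0.03 for experiments 1 and 2, 0.13 for 1 and 3, and 0.06 for 2 and 3. The standard deviation of the differences over genes was 0.59, 0.50 and 0.74 on the log2 scale in experiments 1, 2 and 3.

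The genes nearest to the threshold that were higher at 150 min were Trim13, Tlr2, Adora2b, Mgat4a, Cyth1, Ropn1l, Nfe2l2 and Ankrd28. Trim13, an endoplasmic reticulum ubiquitin ligase, lies at chr14:61598247-61605946 (plus strand, GRCm38). Its level was 4.19, 4.56 and 3.22 CPM at 0 min in experiments 1, 2 and 3, and 6.93, 8.19 and 10.6 CPM at 150 min, a log2 fold change of 1.09 (standard error 0.22, adjusted p in edgeR 0.151). Untreated microglia of the same experiments had 4.99, 5.80 and 6.94 CPM. All 3 libraries at 150 min lay above all 3 at 0 min. Each 0 min library lay below its untreated partner, and each 150 min library lay above it. The acceptor means were 3.99, 6.93, 6.09, 6.80, 8.57 and 4.56 CPM at 0, 15, 30, 60, 150 and 300 min. The 300 min mean is of 2 libraries. Trim13 overlaps Dleu2 on the other strand, and whether the authors' counting used strand is not given in the sources used here.

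Tlr2 (chr3:83836272-83841767, minus strand), the receptor for bacterial lipoproteins that has also been studied as a sensor of aSyn, had 82.6, 47.0 and 93.0 CPM at 0 min and 110, 73.9 and 171 CPM at 150 min. Its log2 fold change was 0.64 (standard error 0.14, adjusted p in edgeR 0.151). Each experiment was higher at 150 min, but the groups overlapped, since experiment 2 at 150 min was below experiments 1 and 3 at 0 min. Donors had 139, 84.4 and 207 CPM of Tlr2 already at 0 min and 106, 67.0 and 191 CPM at 150 min.

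The adenosine receptor gene Adora2b was scarce at 0 min, with 8, 9 and 11 reads (0.88, 0.75 and 0.75 CPM), and had 17, 24 and 86 reads at 150 min (1.71, 1.75 and 5.77 CPM). In untreated cells it had 0.94, 2.14 and 1.71 CPM, each above the 0 min partner, and in experiment 2 also above the 150 min partner. Its log2 fold change of 1.84 (standard error 0.43, adjusted p in edgeR 0.151) was the highest of the 8, and experiment 3 stood far above the others at 150 min. The same experiment led in Cyth1, which encodes an exchange factor for ARF GTPases. Cyth1 was even at 0 min, with 10.5, 10.4 and 10.2 CPM, and had 16.2, 17.9 and 36.0 CPM at 150 min (log2 fold change 1.07, standard error 0.26, adjusted p in edgeR 0.181). Its levels in untreated cells, 15.0, 13.1 and 14.8 CPM, lay above each 0 min library and below each 150 min library. Ankrd28, a regulatory subunit of a protein phosphatase, had 6.17, 5.89 and 6.38 CPM at 0 min and 9.14, 8.70 and 15.1 CPM at 150 min.

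In Mgat4a, a glycosyltransferase that branches N-glycans, the 3 experiments moved alike. Its level was 33.0, 28.4 and 23.9 CPM at 0 min and 42.9, 43.4 and 36.4 CPM at 150 min (log2 fold change 0.53, standard error 0.12, adjusted p in edgeR 0.151). Ropn1l, known from the sperm flagellum, had 1.32, 3.65 and 2.06 CPM at 0 min and 5.32, 5.12 and 4.36 CPM at 150 min. In untreated cells it had 3.12, 4.78 and 5.57 CPM, each above the 0 min partner, and in experiment 3 also above the 150 min partner. Nfe2l2, which encodes the oxidative stress factor NRF2, had 217, 190.5 and 165 CPM at 0 min and 284, 224.5 and 288 CPM at 150 min (log2 fold change 0.47, standard error 0.12, adjusted p in edgeR 0.199). In untreated cells Nfe2l2 had 261.47, 225.78 and 258.55 CPM, each above the 0 min partner. The 150 min library was above its untreated partner in experiments 1 and 3 and slightly below it in experiment 2.

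Of the genes lower at 150 min, the 8 nearest to the threshold were Ppfia4, Nelfcd, Lbh, Slc44a2, Tpgs1, Chmp1a, Fam160b2 and Adam15, each with an edgeR adjusted p of 0.151. The liprin scaffold gene Ppfia4 (chr1:134296783-134332928, minus strand) had 33.9, 44.5 and 37.7 CPM at 0 min and 16.1, 28.2 and 17.5 CPM at 150 min, a log2 fold change of -0.94 (SE 0.20). The transcription cofactor gene Lbh had 28.4, 35.5 and 29.2 CPM at 0 min and 12.9, 23.9 and 19.3 CPM at 150 min. Slc44a2, a choline transporter-like protein, had 37.7, 30.9 and 32.8 CPM at 0 min and 23.3, 23.9 and 22.1 CPM at 150 min. Each of these was lower in all 3 experiments, with no overlap between the groups.

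Adam15, a membrane metalloprotease, went from 182, 169 and 231.6 CPM at 0 min to 136, 128 and 130 CPM at 150 min. Its spread at 150 min was narrow, as was that of Nelfcd, a subunit of the negative elongation factor, with 35.0, 36.7 and 43.2 CPM at 0 min and 23.3, 22.7 and 23.4 CPM at 150 min. The ESCRT-III gene Chmp1a had 98.5, 113 and 148 CPM at 0 min and 68.4, 92.1 and 78.1 CPM at 150 min. Fam160b2 and Tpgs1, a subunit of tubulin polyglutamylase, had log2 fold changes of -0.80 (SE 0.18) and -0.51 (SE 0.12). In Fam160b2 experiment 3 stood highest at 0 min, with 40.0, 36.2 and 62.2 CPM, beside 36.1, 35.3 and 21.0 CPM in untreated cells. Its log2 difference was -1.22 in experiment 3 against -0.595 and -0.39, and that of Adam15 -0.84 against -0.42 and -0.39. Untreated cells had 162, 171 and 173 CPM of Adam15, above each 150 min library. Fam160b2, Nelfcd, Chmp1a and Adam15 were also lower at 150 min in donors in each experiment. Their donor log2 fold changes were -0.67, -0.53, -0.43 and -0.31 (adjusted p in edgeR 0.110 to 0.307). The acceptor minus donor differences were -0.13, -0.20, -0.17 and -0.25 (SE 0.26, 0.23, 0.19 and 0.18). Ppfia4 and Slc44a2 were also lower in donors in each experiment, with smaller log2 fold changes (-0.28 and -0.13). Their acceptor minus donor differences of -0.67 and -0.42 (SE 0.29 and 0.17) did not pass (adjusted p in edgeR 0.793 and 0.782). Lbh and Tpgs1 were mixed in donors (0.09 and -0.06). Of these 16 genes 15 had no overlap between the 0 and 150 min values, against 4.19% of all genes with every 150 min value higher and 4.57% lower, but they were chosen by their p-value in the same contrast. Nelfcd overlaps Ctsz, Chmp1a overlaps Gm20388 and Rps12-ps9, and Adam15 overlaps 4731419I09Rik, each on the other strand.

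**Figure D1:**
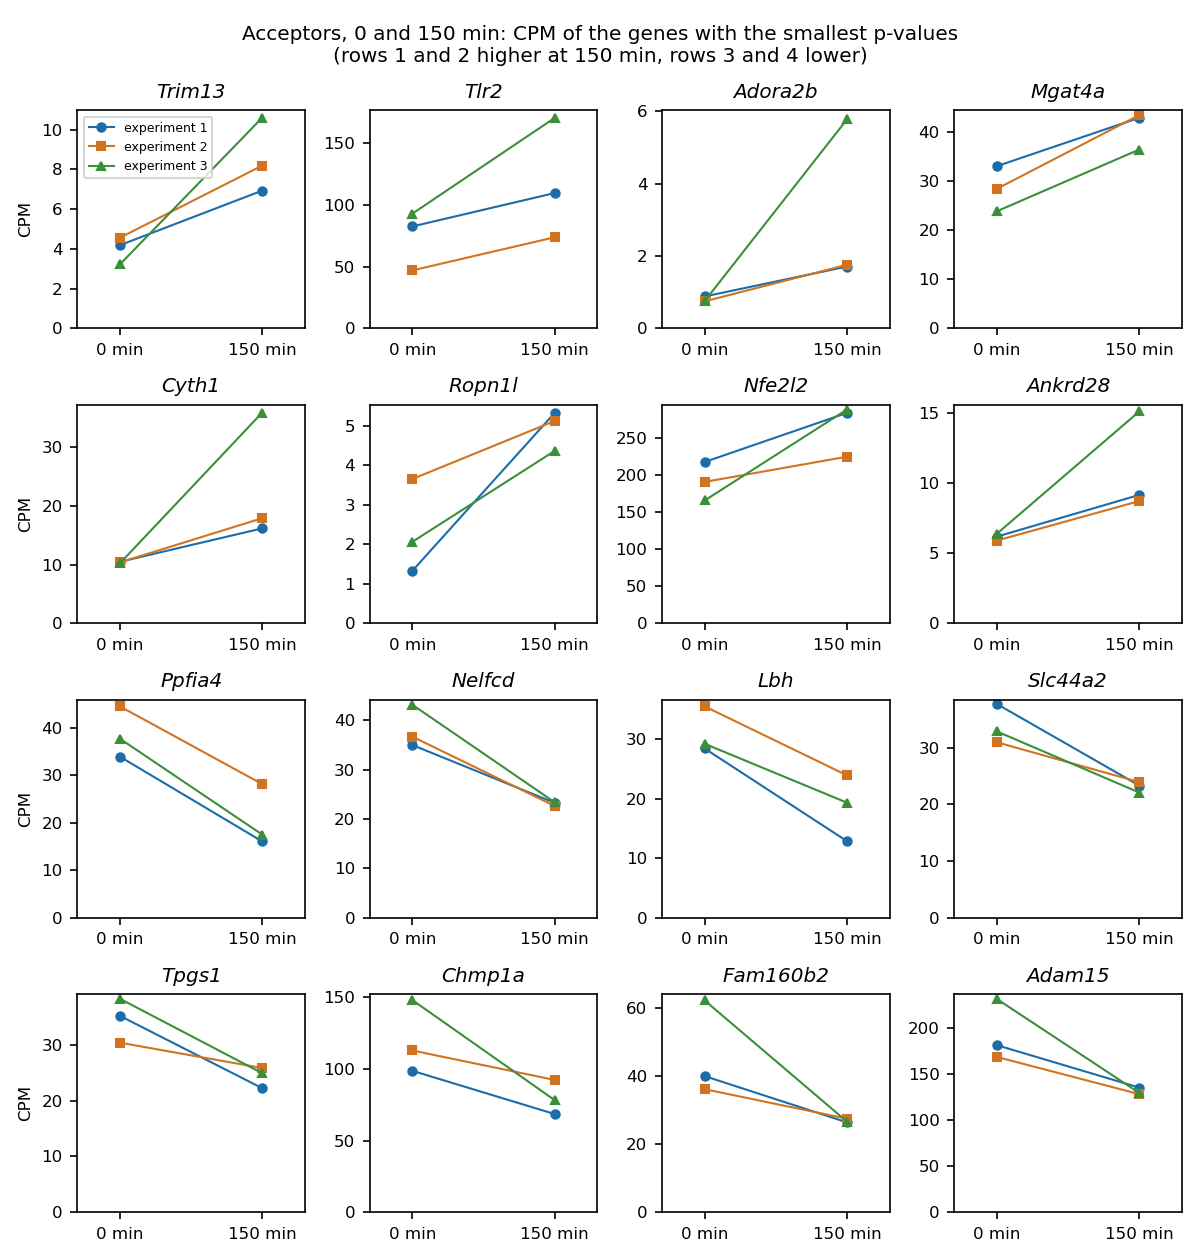
CPM (vertical axis, linear from 0) of the 16 genes with the smallest p-values in acceptors at 0 and 150 min, 8 higher at 150 min and 8 lower; each line joins the 2 libraries of an experiment. All 16 have the same direction in the 3 experiments, and the experiment 3 library at 150 min is far above the others in Adora2b and Cyth1.

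The lists of interferon-stimulated and NF-kB inflammatory genes lay furthest above the median of all genes among the lists of 12 or more tested genes. A list of 11 genes associated with aSyn, described below, had a median of 0.35. For the 41 interferon-stimulated genes the median log2 fold change was 0.56, against 0.01 over all genes. All 41 fitted values were above 0, against 51.2% of all genes, and ranged from 0.08 (Irf9) to 1.02 (Oasl1). None passed the test; the smallest edgeR adjusted p in the list was 0.370. An unadjusted p under 0.05 was found for 17 of the 41, all higher, beside 4.34% of all genes. In all 3 experiments 24 of 41 were higher (58.5%) and 0 lower, beside 17.2 and 16.6% of all genes. These genes share regulators, so they are not independent of each other. Like every list here, this list was chosen with earlier results of these data known, so its counts are no independent evidence of direction.

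The experiments differed in this list. Its median difference was 0.73 in experiment 1, 0.03 in experiment 2 and 1.22 in experiment 3, and 41, 24 and 41 of the 41 genes were higher at 150 min. In each of the 5 genes described next, experiment 2 had the highest level at 0 min. Usp18, which removes the ubiquitin-like protein ISG15 and damps interferon signalling, had 10.0, 44.6 and 8.43 CPM at 0 min and 24.7, 58.6 and 25.8 CPM at 150 min (log2 fold change 0.94, standard error 0.33, adjusted p in edgeR 0.370). Untreated cells had 20.9, 158 and 41.7 CPM of Usp18. The 0 min acceptors were therefore below untreated cells in each experiment, and the 150 min acceptors above them in experiment 1 and below them in experiments 2 and 3.

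Oas1a, an antiviral oligoadenylate synthetase whose promoter is printed above, had 152, 278 and 95.7 CPM at 0 min and 186, 309 and 240 CPM at 150 min. Rsad2, the antiviral enzyme viperin, had 135, 664 and 71.9 CPM at 0 min and 293, 634 and 267.6 CPM at 150 min, with experiment 2 lower at 150 min. Isg15, the ubiquitin-like modifier itself, had 93.7, 390.5 and 78.9 CPM at 0 min and 139, 397 and 211 CPM at 150 min. In Gbp7, a guanylate-binding GTPase, the values were 8.70, 31.1 and 5.42 CPM at 0 min and 11.7, 37.4 and 16.2 CPM at 150 min. Experiments 1 and 3 were higher at 150 min in all 5 genes, while experiment 2 differed less or, in Rsad2, the other way.

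Experiment 3, with the highest interferon-stimulated median, was the one whose Rn45s share moved most, from 2.75% at 0 min to 6.05% at 150 min. Between the same 2 libraries the astrocyte marker sum went from 41.1 to 47.8 CPM and the oligodendrocyte lineage sum from 260.9 to 205.8 CPM. With Rn45s left out of the fit the median of the interferon-stimulated list was 0.564, beside 0.561 in the main fit. The part of the Rn45s share or the marker sums in the result was not otherwise tested. Without experiment 3 the median of the list was still above 0, and its range over all alternative fits was 0.31 to 0.97.

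The NF-kB inflammatory list had a median log2 fold change of 0.35 over its 40 tested genes, with 37 above 0. Its medians were closer together, at 0.15, 0.47 and 0.38 in experiments 1, 2 and 3. In all 3 experiments 24 of 40 were higher (60%, beside 17.2% of all genes) and 1 was lower, and 10 had an unadjusted p under 0.05, all higher, beside 4.34% of all genes. None was called, and the smallest edgeR adjusted p was 0.238. The consensus GGGANNTTCC, one form of the kappaB site, lay on either strand of the promoter in 6 of the 29 genes of this list with an entry (20.7%) and in 151 of 10353 tested genes (1.46%).

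That smallest p belonged to Nlrp3 (chr11:59541568-59566956, plus strand), the sensor of an inflammasome. Nlrp3 had 20.05, 15.0 and 18.8 CPM at 0 min and 27.2, 21.3 and 38.8 CPM at 150 min (log2 fold change 0.68, SE 0.18). Untreated cells had 20.4, 16.9 and 21.0 CPM, so each 0 min library was slightly below and each 150 min library was above its untreated partner. Il1b, the cytokine that inflammasomes process, had 29.4, 41.5 and 16.0 CPM at 0 min and 43.1, 72.7 and 161 CPM at 150 min (log2 fold change 1.46, standard error 0.47, adjusted p in edgeR 0.340). Most of that difference came from experiment 3, whose log2 difference was 3.32 against 0.55 and 0.81. Il1b is overlapped by the antisense gene Il1bos.

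Acod1, the enzyme that makes itaconate, had 25.7, 48.9 and 30.8 CPM at 0 min and 37.5, 106 and 118 CPM at 150 min (log2 fold change 1.17, standard error 0.33, adjusted p in edgeR 0.268). Donors carried far more of it, 141, 284 and 351 CPM at 0 min and 104, 238.1 and 367 CPM at 150 min. Gpr84, a receptor for medium-chain fatty acids, had 17.5, 5.47 and 22.97 CPM at 0 min and 18.3, 15.3 and 44.8 CPM at 150 min. The chemokine Cxcl10, a gene under both NF-kB and interferon control, had 31.7, 102 and 34.5 CPM at 0 min and 94.2, 163 and 65.3 CPM at 150 min (log2 fold change 1.00, standard error 0.35, adjusted p in edgeR 0.367). Not every chemokine was higher: Ccl3 had 589, 570 and 531 CPM at 0 min and 596, 541 and 218 CPM at 150 min. With only the acceptor libraries in the fit, 2 genes were called, Cxcl10 and Acod1.

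**Figure D2:**
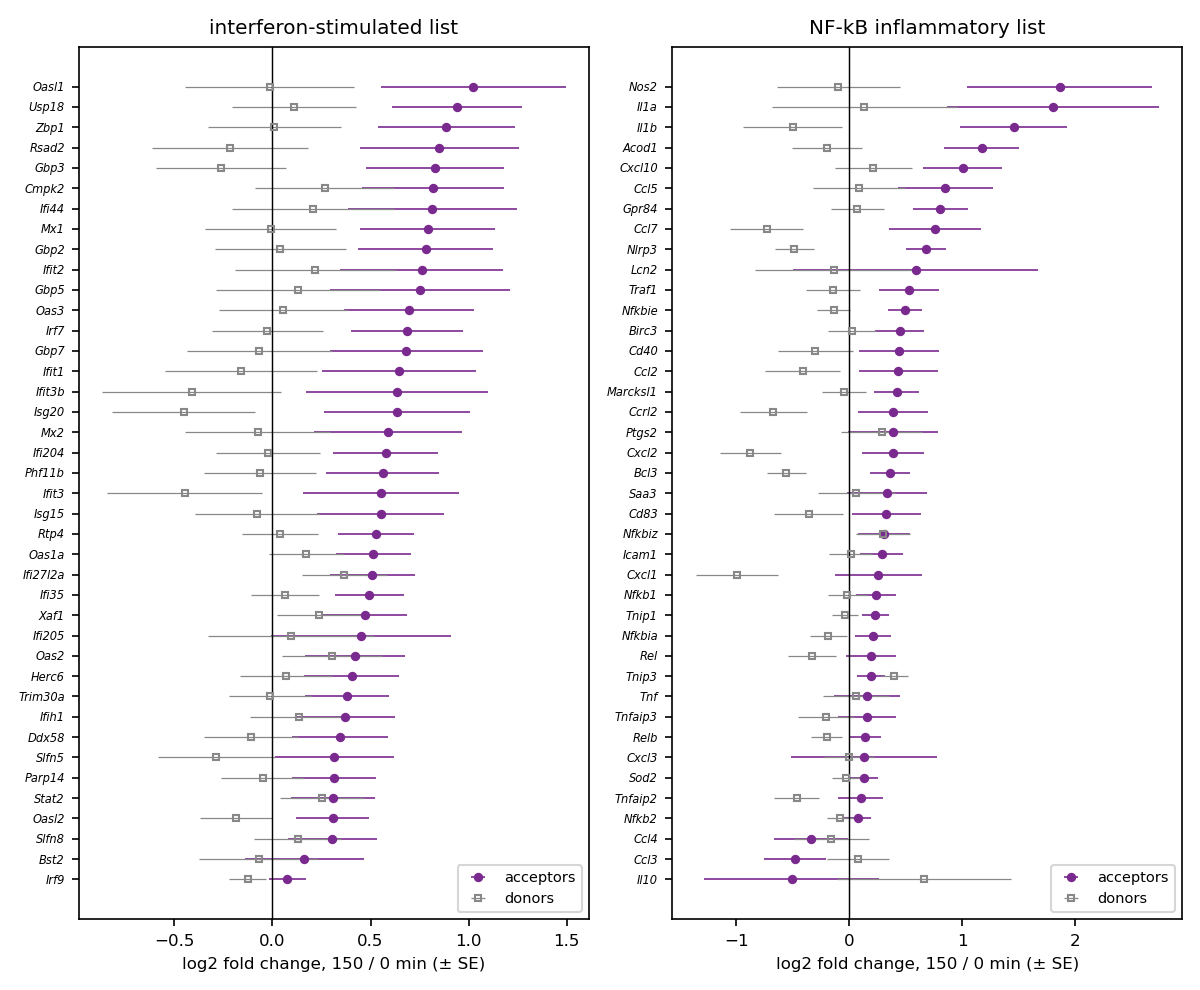
Log2 fold change from 0 to 150 min with its standard error (horizontal axis) for the tested genes of the interferon-stimulated list (left, 40 of its 41 genes) and the NF-kB inflammatory list (right, 40 genes), in acceptors (filled circles) and donors (open squares). Acceptor values are above 0 for all 40 genes on the left and for 37 of 40 on the right.

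Immediate early genes did not lie above the median of all genes at 150 min. Of 33 tested, 14 had a log2 fold change above 0, and the median was -0.07. At 15, 30 and 60 min against the same 0 min libraries the medians were 0.26, 0.34 and 0.34. Dusp1, a phosphatase of MAP kinases, had 193, 188 and 145 CPM at 0 min and 138, 138 and 139 CPM at 150 min. Klf4 and Nr4a2, transcription factors of the same list, were higher in all 3 experiments, Klf4 with 14.4, 11.0 and 2.26 CPM at 0 min and 21.4, 16.7 and 9.73 CPM at 150 min.

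Among the other lists the differences were smaller, and the counts of genes with 1 direction in all 3 experiments stand beside 17.2% higher and 16.6% lower over all genes. These shares varied between lists in both directions. The lysosome and V-ATPase list, with a median of 0.03, had 36.4% higher and 27.3% lower. The disease-associated microglia list (median 0.04) had 37.5% and 25%, and the list of DNA replication and S phase (median -0.04) 14.7% and 8.82%. In the respiratory chain list 20 of 49 genes were higher in all 3 experiments (40.8%) and 3 lower, with a median of 0.07. Donors moved the same way in this list, with a median of 0.12, 27 of 49 higher in all 3 and 4 lower. Over all 13079 genes 2522 were higher in all 3 in donors. Cycs, the electron carrier cytochrome c, had a log2 fold change of 0.37 in acceptors (standard error 0.11, adjusted p in edgeR 0.282). In the homeostatic microglia list 10 of 23 were lower in all 3 (43.5%) and 2 higher, with a median of -0.11. For donors 9 of 23 were lower in all 3 and 3 higher, with a median of -0.05, beside 2354 of all 13079 genes lower in all 3. The list holds 11 of the 12 microglia markers whose sum was lower at 150 min in each experiment, so the sum and the list are not separate measurements. Gpr34, a lysophosphatidylserine receptor of that list, had 11.6, 10.7 and 6.99 CPM at 0 min and 8.94, 7.39 and 1.01 CPM at 150 min. The respiratory chain medians of the experiments were 0.03, 0.06 and 0.10, and the homeostatic ones -0.10, -0.08 and -0.06.

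LXR targets, some of which carry cholesterol out of cells, had a median of 0.19 over 12 genes, with medians of 0.25, -0.06 and 0.47 in the 3 experiments. Genes of MHC and antigen presentation had 0.18 over 24, with 19 above 0; Psmb9, an immunoproteasome subunit, had a log2 fold change of 0.48 (standard error 0.17, adjusted p in edgeR 0.383). In cholesterol synthesis 0 of 30 were higher in all 3 experiments and 6 lower (20%), the latter close to the 16.6% of all genes, and the median of -0.04 became 0.03 without experiment 2. Insig1, which holds back sterol synthesis, had 26.8, 25.6 and 21.3 CPM at 0 min and 16.7, 14.3 and 18.2 CPM at 150 min. The list of NRF2 and oxidative stress genes, which was not limited to NRF2 targets, had a median of -0.11, with 21 of 34 below 0. Nfe2l2 was higher in each experiment.

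In the TGF-beta list the median was 0.06 over 30 genes. Skil, a repressor of SMAD factors, had 68.1, 60.5 and 39.6 CPM at 0 min and 87.3, 83.4 and 117 CPM at 150 min (log2 fold change 0.77, standard error 0.21, adjusted p in edgeR 0.263). In the list of ER stress and the integrated stress response 15 of 34 were higher in all 3 experiments (44.1%) and 3 lower. A list of 11 genes associated with aSyn, chosen on these libraries and so no independent evidence of direction, had a median of 0.35, with 2 higher in all 3 experiments and 1 lower.

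**Figure D3:**
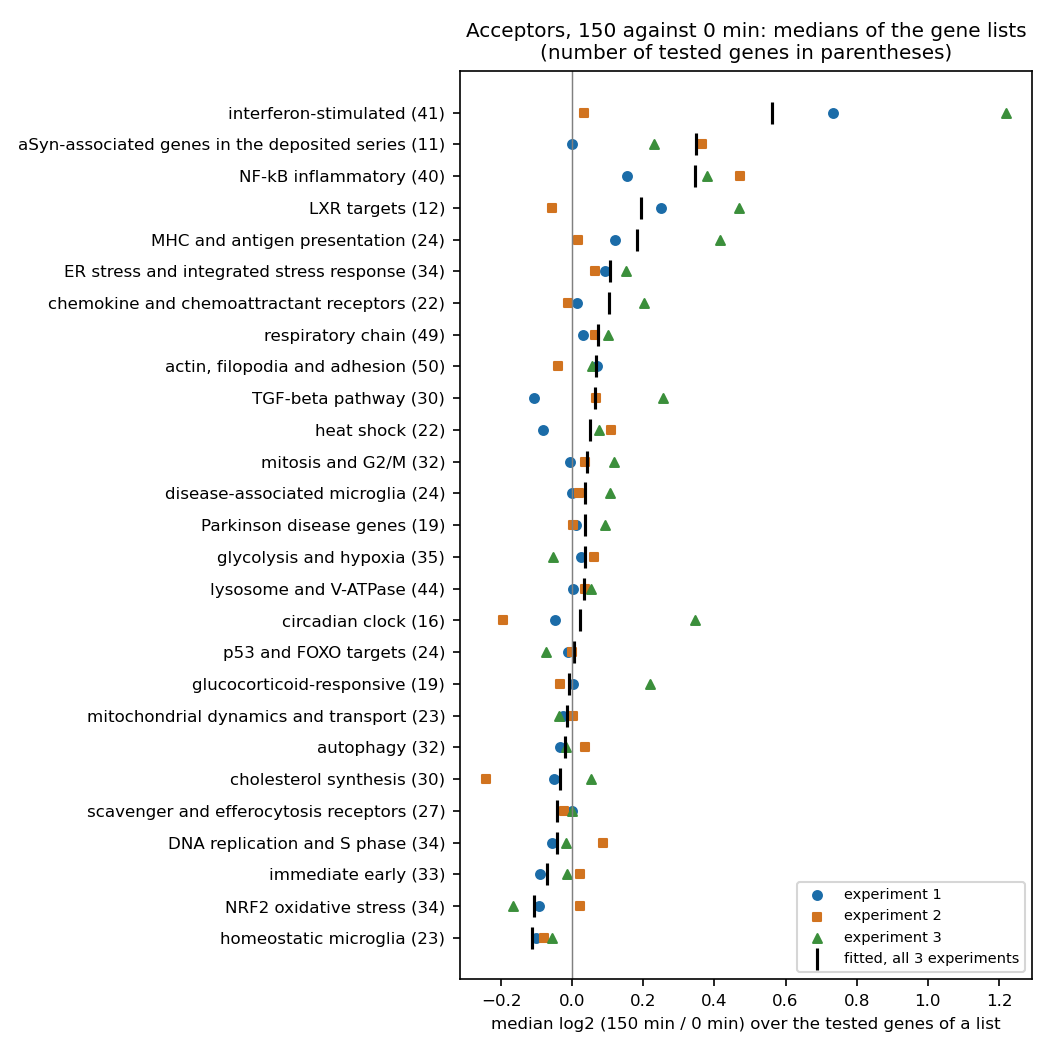
Median log2 ratio of 150 to 0 min (horizontal axis) over the tested genes of each of 27 lists, for the 3 experiments (coloured symbols) and for the fit over all of them (black bars). The interferon-stimulated medians spread from 0.03 to 1.22 over the experiments, those of the NF-kB list from 0.15 to 0.47.

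Donors went through the same co-cultures, so their change from 0 to 150 min was set against that of acceptors. In donors edgeR called 31 genes (0.237%), 9 higher and 22 lower at 150 min, and 1556 had an unadjusted p under 0.05 (11.9%). Without the block 2 of them were called, Cxcr4 and Fbxo32, without experiment 1 or 2 none was, and without experiment 3 there were 129 calls. The difference between the acceptor and the donor change passed the test for 3 genes (0.0229%), Fbxo32, Socs3 and Cxcr4, while 753 genes were under 0.05 before adjustment (5.76%). In each the donor level fell while the acceptor values were higher or mixed. Donors were far above acceptors at 0 min in all 3, and the ranges of the populations overlapped at 150 min.

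Fbxo32 (chr15:58175879-58214932, minus strand) encodes the substrate-binding subunit of a ubiquitin ligase known from muscle wasting and controlled by FOXO factors. Acceptors had 8.48, 4.89 and 5.14 CPM at 0 min and 9.84, 7.53 and 10.3 CPM at 150 min. Donors had 26.2, 24.3 and 17.0 CPM at 0 min and 10.3, 6.55 and 8.15 CPM at 150 min. The donor groups did not overlap and fell by 1.44 on the log2 scale (edgeR adjusted p 0.00112), while the acceptor log2 fold change was 0.62 (standard error 0.22, adjusted p in edgeR 0.370). The difference was 2.06 (standard error 0.30, adjusted p in edgeR 0.00144). Fbxo32 overlaps Gm15943 on the other strand.

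Socs3 (chr11:117966079-117970047, minus strand) encodes an inhibitor of cytokine signalling through JAK and STAT that is itself a STAT target. Its acceptor levels were 9.03, 4.15 and 6.86 CPM at 0 min and 11.4, 10.0 and 13.6 CPM at 150 min, with no overlap. Its donor levels were 23.7, 22.9 and 32.3 CPM at 0 min and 7.99, 9.17 and 15.8 CPM at 150 min, again with no overlap but in the other direction. The acceptor log2 fold change was 0.84 (standard error 0.27, adjusted p in edgeR 0.340), the donor one -1.29 (adjusted p 0.0243) and the difference 2.13 (standard error 0.37, adjusted p in edgeR 0.0170).

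Cxcr4 (chr1:128588199-128592293, minus strand), the receptor of the chemokine CXCL12, had 100.8, 61.9 and 80.3 CPM in acceptors at 0 min and 86.7, 80.1 and 132 CPM at 150 min. Experiment 1 was lower at 150 min and the other experiments were higher. Donors had 242, 258.96 and 200.2 CPM at 0 min and 86.7, 96.4 and 95.9 CPM at 150 min, a level that dropped by 1.33 on the log2 scale (adjusted p in edgeR 0.00216). The difference was 1.63 (standard error 0.29, adjusted p in edgeR 0.0170). Without the block none of the 3 differences passed; the smallest edgeR adjusted p was then 0.0502. Without experiment 1, or without experiment 2, none passed either.

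Over the lists, the acceptor change exceeded the donor change for 41 of 41 interferon-stimulated genes, 36 of 40 NF-kB genes and 27 of 33 immediate early genes, against 6261 of 13079 genes. No member of these lists was called for the difference. The donor medians were -0.01, -0.12 and -0.46. For the interferon-stimulated and NF-kB lists the acceptor medians made up most of the gap, and for the immediate early list the donor median did. Of the 33 immediate early genes 4 were called lower in donors, Dusp1, Rhob, Fosb and Klf2, beside 22 of all 13079 genes (0.168%). None of the 4 was called without the block, with experiment 4 added, or without experiment 1 or 2. Klf2 fell in donors from 267.2, 107 and 166 CPM to 47.1, 25.5 and 84.7 CPM, while acceptors had 33.6, 36.3 and 30.1 CPM at 0 min and 31.5, 35.1 and 27.1 CPM at 150 min.

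The other times in co-culture share the 0 min acceptor libraries with this comparison, so their values are set side by side only. Against 0 min, edgeR called 0, 0, 1 and 0 genes at 15, 30, 60 and 300 min (0%, 0%, 0.00765% and 0%), with an unadjusted p under 0.05 for 530, 616, 928 and 816. DESeq2 called 1, 0, 14 and 0, and limma voom 0, 0, 5 and 0. The gene at 60 min was Nfe2l2, with 325, 240 and 370 CPM and a log2 fold change of 0.70 (standard error 0.12, adjusted p in edgeR 0.0129). Without experiment 1 its adjusted p was 0.471 and without experiment 3 0.413. In Nfe2l2 each 0 min library was below its untreated partner, and each 60 min library was above it. At 300 min acceptors had libraries of experiments 1 and 2 only.

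Cxcr4 in acceptors averaged 81.01, 101.4, 152, 163, 99.4 and 66.2 CPM at 0, 15, 30, 60, 150 and 300 min, so that the 150 min level lay past the highest mean at 60 min. Socs3 averaged 6.68, 8.37, 9.31, 14.0, 11.6 and 4.86 CPM at those times, and Fbxo32 6.17, 8.10, 6.27, 11.1, 9.24 and 6.10 CPM. Adora2b had 0.79, 0.68, 1.37, 2.45, 3.08 and 1.07 CPM, with its highest mean at 150 min. The interferon-stimulated medians against 0 min were 0.41, 0.27, 0.50, 0.56 and 0.81 at 15, 30, 60, 150 and 300 min, and those of the NF-kB list 0.12, 0.18, 0.29, 0.35 and 0.10. Among the times with all 3 experiments, both lists had their highest median at 150 min. The 300 min means and medians rest on experiments 1 and 2 only, so they cannot be ranked against the other times. When the 150 min acceptor library numbered 4 was added with its experiment, the count of genes called between 150 and 0 min stayed at 0.

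**Figure D4:**
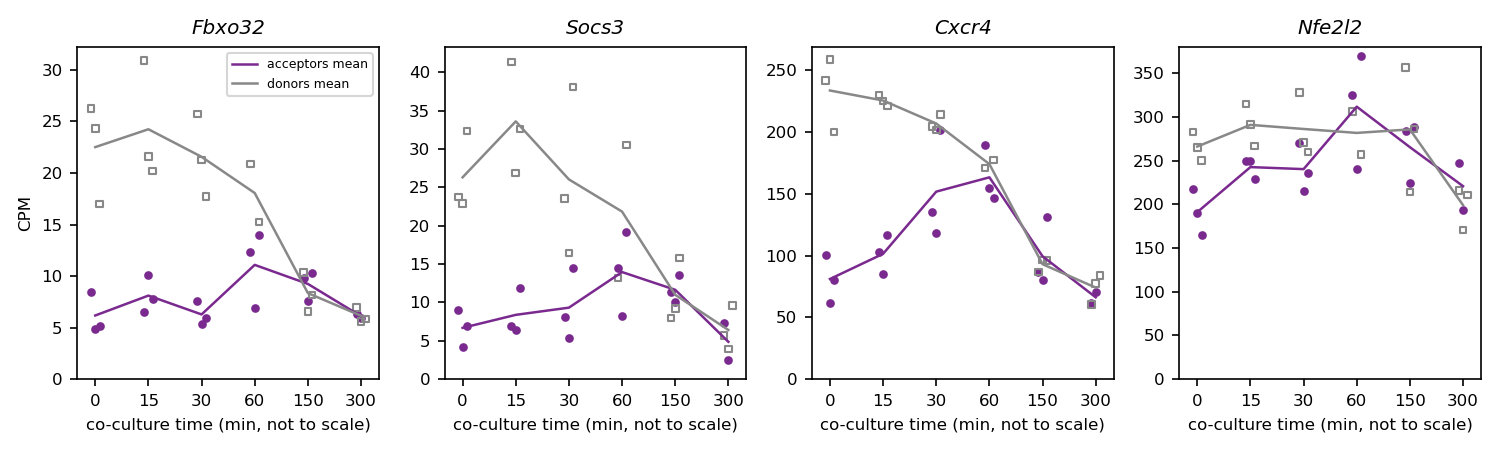
CPM (vertical axis, linear from 0) of Fbxo32, Socs3, Cxcr4 and Nfe2l2 over co-culture time in acceptors (filled circles) and donors (open squares), with lines through the means; symbols are single libraries, 3 for each point except acceptors at 300 min and donors at 60 min, with 2. In Fbxo32, Socs3 and Cxcr4 donors start above acceptors at 0 min and the 2 populations overlap at 150 min.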

How the data were processed

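The authors deposited raw counts per gene symbol and a normalized signal for 54 libraries, per the file headers; the submitters' processing notes name STAR, Partek, DESeq2 and mm10 without roles. Counter, annotation and strand use are not given in the sources used here. The deposited normalized signal equalled count divided by size factor for 100% of values (within 0.1) and was not used further.

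Counts of the 41 libraries with replicate numbers 1 to 3 were fitted with edgeR 4.0.16 (R 4.3.3; filterByExpr, minimum count 10; TMM; group plus replicate block; 40 units, since 2 untreated libraries with 1 number were summed), keeping 13079 of 16632 genes, with Benjamini-Hochberg adjustment over all of them and a threshold of 0.05. The block follows the labels, which give each number 1 passage. Same-numbered acceptor libraries correlated at 0.373, 0.538 and 0.602 in their deviations from group means, others at -0.498 to 0.0873. Such deviations sum to 0 within a group, so the values of unlike numbers are not separate from those of like numbers. Differences per experiment are of log2 CPM (prior count 2). Number 4 stayed out, having no acceptor library at 0 min. P-values measure the spread between these libraries only.

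Named are the 8 genes with the smallest p-values in each direction, called differences from donors, and called list members. Others in the text were chosen after their values were seen, as were list examples. The members and lists were chosen with earlier results of these data known. Gene positions come from GENCODE and promoters from RefSeq, both on GRCm38. The scripts were tested on simulated data. DESeq2 1.42.0 and limma 3.58.1 were alternatives. Some list members are not reported here by name.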

Additional observations from a re-analysis of the deposited data

Results flagged for a closer look

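The change from 0 to 150 min differed between acceptors and donors, by the interaction test, in 3 genes. The acceptor minus donor log2 fold change was 2.06 for Fbxo32, 2.13 for Socs3 and 1.63 for Cxcr4 (edgeR adjusted p 0.00144, 0.0170 and 0.0170). Acceptors were higher at 150 min in all 3 experiments for Fbxo32 and Socs3 and in 2 of 3 for Cxcr4, and donors were lower in all 3 for each.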

How the results depend on the processing

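Between acceptors at 150 and 0 min 0 genes were called without the replicate block (545 at an unadjusted p under 0.05), as with the block, 1 with only the 6 libraries (Hist1h2ao), 2 with only acceptor libraries, 17 with DESeq2 (7 higher, 10 lower), and 0 to 2 when 1 experiment was left out (Ifi211 and Ifi204 without experiment 2). Donors gave 31 genes, 2 without the block, 2 with experiment 4, 141 with DESeq2, and 0, 0 and 129 without experiments 1, 2 and 3. The difference between them gave 3 genes, 0 without the block, 19 with DESeq2, and 0, 0 and 7 without experiments 1, 2 and 3. The alternatives at the other times were added after the data were seen. At 15 min 2 genes were called with only acceptor libraries and 1 with DESeq2. At 30 min 4 were called with only acceptor libraries. At 60 min the count of 1 became 0 without the block, 6 with only acceptor libraries, 0 with experiment 4, 2 without a filter, 14 with DESeq2, 5 with limma voom and 0 to 8 without 1 experiment. At 300 min it was 38 with only acceptor libraries and 0 to 77 without 1 experiment, 77 being without experiment 2. There a single acceptor library of 300 min remains, taken to vary like the other groups. The cause was not tested.

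All 16 genes named for acceptors kept their direction in 208 values over 13 alternatives, and 13 of these values passed, all with DESeq2. Of 33 values for the 3 differences 22 still passed and 0 reversed. The Socs3 difference was lost without the block (adjusted p 1), with experiment 4 (0.559) and without any 1 experiment (0.1 to 0.236). Of 351 list medians 325 stayed within 1 SD of the experiments. The NF-kB median ranged from 0.262 to 0.427 and that of MHC genes from 0.0652 to 0.235. Of the 27 lists 16 took both signs, among them LXR targets (-0.0223 to 0.393), homeostatic microglia (-0.134 to 0.0444), immediate early genes (-0.0877 to 0.159), NRF2 (-0.15 to 0.00183), TGF-beta (-0.0654 to 0.15) and cholesterol synthesis (-0.177 to 0.0297). Depth limits scarce genes such as Adora2b, with 8 to 11 reads at 0 min.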
